A study of Mus musculus with 8 samples.

Results

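The genes described are 40 mouse genes of glucose metabolism and of the response to low oxygen, taken from a fixed list of names and matched to array probes through their RefSeq accessions. All 40 had a probe, 12 of them more than 1, and all passed the filter on dim probes among the 33615 genes and unnamed features tested. Of the 40, 37 were well above background on every array, and the exceptions were Fbp1, Pck1 and Pdk4.

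RNA came from mesonephric tubules, the epithelium of a transient embryonic kidney, cut by microdissection from toluidine blue stained cryosections of embryos labelled C57/BL6. There were 3 arrays of p21 knockout embryos (p21KO -/-) and 5 of wild-type embryos, each a 1-colour array (Cy3), on 3 slides that all held both groups. p21, the product of Cdkn1a, is a cyclin-dependent kinase inhibitor, and the study set tubules of wild-type embryos, called senescent, against tubules of embryos without it. The labels do not give the embryonic stage, the design of the null allele, or whether embryos were pooled or separate, so p-values measure the spread between these samples only. Cdkn1a itself averaged 1.49 ± 0.58 (SD, n = 3) in the arrays labelled p21-null and 1.68 ± 0.90 (SD, n = 5) in wild type, and the groups overlapped (difference -0.19, limma adjusted p = 0.950). These values are of the brighter of 2 Cdkn1a probes that passed the filter. Where either probe lies relative to the deleted part is not known here, so the signal does not check the label. Those arrays are named by the label throughout, as labelled p21-null.

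Signals are log2 intensities relative to the 75th percentile of each array, so 0 is the level of that percentile and a difference of 1 is 2-fold. A level is compared only within a gene, since probes of different genes differ in brightness. In such dissected tissue fewer cells of a type and less RNA per cell cannot be told apart. Of 15 markers of mesonephric tubule and duct, 13 were above background on all 8 arrays. Emx2 was above it on 2 of 3 labelled p21-null and 5 of 5 wild-type arrays. Ret was above it on 0 of 3 labelled p21-null and 4 of 5 wild-type arrays. The Ret groups overlapped, and its difference of -2.57 had an interval from -5.25 to 0.11 (limma unadjusted p = 0.0584). Wt1 was 2.52-fold and Cdh6 4.84-fold lower in labelled p21-null arrays. These were the 2 of 15 with an unadjusted p under 0.05 in limma, where 3.91% of all features were lower. Of the 15, 12 had a negative difference and 3 a positive one. The 3 were Cdh1 (1.65, interval from -0.59 to 3.90), Lhx1 (0.09) and Epcam (0.08). The mean of the 15 lay between -2.46 and -1.55 in labelled p21-null arrays and between -2.26 and 0.31 in wild type.

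Markers of blood and liver differed between the arrays, and many isozymes below are those of liver or red cells. The mean of 18 erythroid markers was 3.58, 2.86 and 3.63 in labelled p21-null replicates 1 to 3, against 2.04, 0.43, 1.59, 0.98 and 2.56 in wild-type replicates 1 to 5. Each labelled p21-null array lay above every wild-type array. The mean of 19 liver markers was 3.52, 2.15 and 3.28 in labelled p21-null arrays, against 0.74, -1.31, 1.001, 0.52 and 2.53 in wild-type arrays, where replicate 5 stood above labelled p21-null replicate 2. Of these markers 13 of 18 and 16 of 19 were higher in labelled p21-null arrays at an unadjusted p under 0.05 (6.2% of all features were), among them Ank1 (ankyrin) at 3.63-fold and Nfe2 (an erythroid transcription factor) at 5.14-fold, and by the plasma proteins Apoa1 at 11.3-fold and Apoh at 9.38-fold and the fatty acid binder Fabp1 at 6.31-fold. All measured markers of both lists were above background on all 8 arrays, and their part in the isozyme values was not tested beyond the covariate fits given below. Of 14 macrophage markers 10 were higher by the same measure, and those of smallest p were Tyrobp at 3.07-fold, Coro1a at 2.97-fold and Laptm5 at 4.25-fold. Among endothelial markers 0 of 10 had an unadjusted p under 0.05 in limma (Tek differed by 0.60, Ramp2 by -0.44 and Pecam1 by 0.70).

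Glycolysis splits glucose into pyruvate, which lactate dehydrogenase reduces to lactate or mitochondria oxidise, and gluconeogenesis in liver and kidney runs the path backward through 4 enzymes of its own. Many steps have several isozymes: Pklr encodes the pyruvate kinase of liver and red cells and Pkm that of most other tissues, while Eno3 and Pgam2 are muscle forms and Eno2 and Aldoc are typical of brain. When oxygen is low, the transcription factor HIF-1 binds a short core sequence and raises glucose transporters, glycolytic enzymes and genes such as Vegfa.

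Start sites of 4 genes are printed to show the pair of Pklr starts and the hypoxia core near genes of the list, and no result rests on them. They come from RefSeq windows of GRCm38.p6 that run from 250 bases before to 50 bases after a start. Windows existed for 39 of the 40 genes, and Slc2a3 had none. Pklr has 2 starts, the upstream one used in red cells and the downstream one in liver. Capitals mark AGATAA or TGATAA on either strand, a form of the motif bound by GATA factors, of which the upstream window holds 1 and the downstream window 0. The array probe is not placed relative to either start.
Pklr upstream start, chr3:89135892-89136191, plus strand: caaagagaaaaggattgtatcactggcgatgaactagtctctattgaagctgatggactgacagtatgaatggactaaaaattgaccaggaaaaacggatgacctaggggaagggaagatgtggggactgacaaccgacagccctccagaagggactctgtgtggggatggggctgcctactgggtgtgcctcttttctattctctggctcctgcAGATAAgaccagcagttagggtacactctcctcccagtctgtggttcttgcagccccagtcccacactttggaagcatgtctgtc
Pklr downstream start, chr3:89136373-89136672, plus strand: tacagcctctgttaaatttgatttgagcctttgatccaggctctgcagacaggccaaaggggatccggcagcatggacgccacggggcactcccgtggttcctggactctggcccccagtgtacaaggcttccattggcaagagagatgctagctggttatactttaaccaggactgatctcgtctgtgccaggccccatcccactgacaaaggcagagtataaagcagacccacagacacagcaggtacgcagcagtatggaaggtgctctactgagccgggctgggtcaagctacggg

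In the windows of Ldha, Bnip3 and Slc2a1 capitals mark ACGTG or GCGTG on either strand, the core of the hypoxia response element, with overlapping matches joined. The same letters lie inside CACGTG, the E-box bound by MYC and USF factors, which occurs in the first 2 of these windows.
Ldha, chr7:46845554-46845853, plus strand: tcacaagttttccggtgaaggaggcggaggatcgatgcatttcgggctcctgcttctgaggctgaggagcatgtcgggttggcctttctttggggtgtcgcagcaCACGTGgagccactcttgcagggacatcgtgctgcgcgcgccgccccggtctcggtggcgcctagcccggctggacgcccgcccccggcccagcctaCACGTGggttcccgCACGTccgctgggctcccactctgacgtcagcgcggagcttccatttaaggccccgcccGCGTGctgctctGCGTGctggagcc
Bnip3, chr7:138909457-138909756, minus strand: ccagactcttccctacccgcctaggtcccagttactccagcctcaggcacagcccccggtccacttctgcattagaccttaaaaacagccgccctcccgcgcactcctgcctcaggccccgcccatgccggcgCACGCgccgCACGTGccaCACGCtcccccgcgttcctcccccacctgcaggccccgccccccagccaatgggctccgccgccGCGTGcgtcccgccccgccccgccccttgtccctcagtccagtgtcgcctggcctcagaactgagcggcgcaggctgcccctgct
Slc2a1, chr4:119108495-119108794, plus strand: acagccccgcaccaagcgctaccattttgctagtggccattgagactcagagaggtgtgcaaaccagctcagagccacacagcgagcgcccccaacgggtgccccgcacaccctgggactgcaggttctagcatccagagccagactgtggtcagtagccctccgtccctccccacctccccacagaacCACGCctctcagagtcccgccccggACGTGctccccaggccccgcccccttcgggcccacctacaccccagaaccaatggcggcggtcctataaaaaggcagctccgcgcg
For Ldha the window with the most such sites is printed, and another held 2. The printed Ldha window held 5, that of Bnip3 4 and that of Slc2a1 2 such sites. At least 1 was found for 31 of 39 genes of the list (79.5%), against 46.7% of 27025 genes with a window. By window it was found in 41 of 61 of the list (67.2%), against 43.8% of all windows. The GATA motif was found for 14 of 39 genes of the list (35.9%), against 5664 of 27025 genes with a window, and in 17 of 61 windows of the list (27.9%), against 18.6% of all windows. A match describes the letters only.

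No gene of the list differed between the groups after adjustment over all features. Tested with limma, 6 of the 40 had an unadjusted p under 0.05 (15%), against a background of 10.1% of 33615 features. Among the 18167 features with a gene symbol the share was 12.8%. Of the 6, Pklr, Pcx, Slc2a1, Pdk3 and Pfkp were on the higher side in labelled p21-null arrays (background 6.2%) and Ldhb on the lower side (background 3.91%). Without labelled p21-null replicate 3 the count was 3. The smallest adjusted p in the list was 0.302, for Pcx. With a limit of 0.01 and a 2-fold change there were 2, Pklr and Pcx, both higher (background 2.09% higher and 2.95% either way). This count was 0 when wild-type replicate 4 or labelled p21-null replicate 1 or 3 was left out, and 1 when wild-type replicate 1, 2 or 3 was. The count over all features at adjusted p under 0.05 was 0, with 3401 at an unadjusted p under 0.05, and it was 4 with normexp background correction and 8 with array weights.

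**Figure D1:**
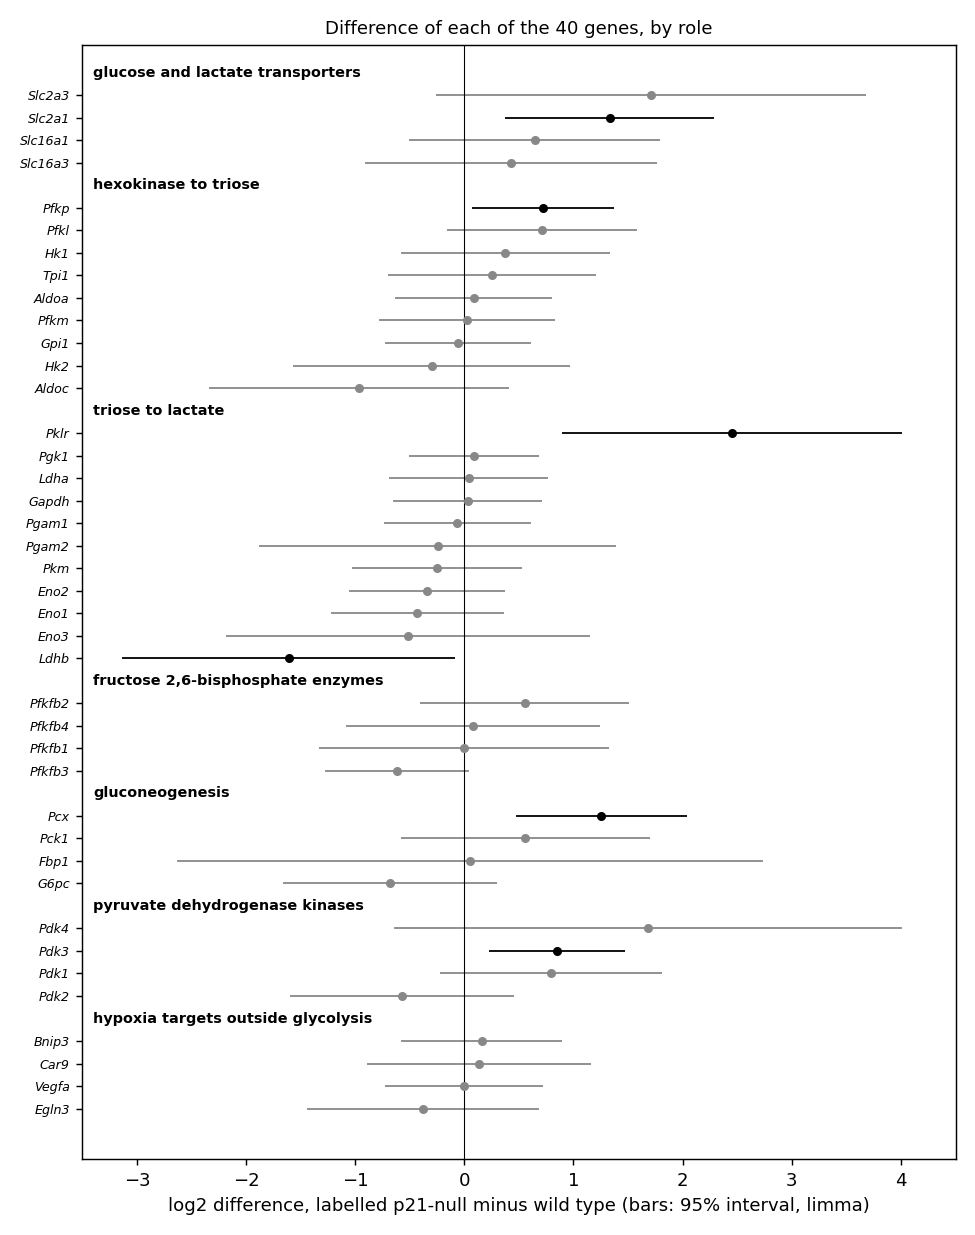
Log2 difference of each of the 40 genes (horizontal axis, labelled p21-null minus wild type), grouped by role, with 95% intervals from limma. Black points have an unadjusted p under 0.05, and the interval of 34 of the 40 genes holds 0.

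Differences above 0 were found for 24 genes and below 0 for 16, against 47.7% above 0 over all features. The median difference was 0.07 for the list and -0.03 for all features. The 95% interval held 0 for 34 genes. For 9 genes it lay wholly within 1 on the log2 scale either way, so that a 2-fold difference was outside it, and for the other 31 it reached further. Groups did not overlap for 6 genes, of which 5 were higher (background 4.44%) and 1, Pfkfb3, lower (background 2.44%, and 6.88% either way).

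Glucose enters cells through the facilitative transporters Slc2a1 (GLUT1) and Slc2a3 (GLUT3), and lactate crosses the membrane by Slc16a1 (MCT1) and Slc16a3 (MCT4). All 4 had a positive difference, and the mean of the 4 was 0.71, 0.63 and 0.96 in labelled p21-null replicates 1 to 3, against 0.04, -0.37, -0.72, -0.52 and 0.25 in wild-type replicates 1 to 5. Slc2a1 stood at 4.28, 2.96 and 3.90 in labelled p21-null arrays, against 2.68, 1.77, 2.71, 1.86 and 2.90 in wild-type arrays. Labelled p21-null replicate 2 lay just above wild-type replicate 5 and the other two were well clear of it. The difference was 1.33 (SE 0.42), or 2.51-fold (unadjusted p = 0.0117, limma adjusted p = 0.345), and 1.90, 1.10 and 0.999 within slides 1, 2 and 3. Without labelled p21-null replicate 1 it was 1.04 (limma unadjusted p = 0.0567). Slc2a3 averaged 1.18 ± 1.35 (SD, n = 3) in labelled p21-null arrays and -0.53 ± 1.43 (SD, n = 5) in wild type, and its difference of 1.71 had an interval from -0.26 to 3.68. Slc16a1 differed by 0.65 (0.42 with normexp background correction) and Slc16a3 by 0.43, with overlapping groups.

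The first steps of glycolysis are run by hexokinases, the phosphofructokinases that commit sugar to the pathway, and aldolases. Pfkp, the platelet form of phosphofructokinase, had 2.67, 1.89 and 2.46 in labelled p21-null arrays, against 1.85, 1.49, 1.76, 1.57 and 1.42 in wild-type arrays. The groups were apart by a small margin, labelled p21-null replicate 2 and wild-type replicate 1 being neighbours. The difference was 0.72 (SE 0.29), or 1.65-fold (unadjusted p = 0.0335, limma adjusted p = 0.445), and 0.97, 0.32 and 1.04 within slides 1, 2 and 3. The limma p was 0.131 and 0.104 with labelled p21-null replicate 1 or 3 left out, and 0.0650 and 0.0610 with wild-type replicate 2 or 5 left out. A second, dimmer Pfkp probe differed by 0.38 (two-sided exact permutation test over 56 splits of the arrays, p = 0.339).

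Pfkl, the liver form, averaged 3.21 ± 0.34 (SD, n = 3) in labelled p21-null arrays and 2.50 ± 0.58 (SD, n = 5) in wild type, and Pfkm, the muscle form, 0.06 ± 0.28 in labelled p21-null arrays and 0.03 ± 0.51 in wild type. Their differences were 0.71 (interval from -0.16 to 1.58) and 0.03 (interval from -0.78 to 0.83). Hk1 and Hk2, the hexokinases of most tissues and of muscle, differed by 0.38 and -0.30. The 2 Hk1 probes gave unlike sizes, 0.38 on the brighter and 1.44 on the dimmer (two-sided exact permutation p = 0.464 and p = 0.0893). Aldoc differed by -0.96 with an interval from -2.34 to 0.41; its wild-type level was highest in replicate 4, at 2.89, and lowest in replicate 1, at 0.07. The mean of 15 neural and chromaffin markers was -1.73, -1.23 and -2.38 in labelled p21-null arrays, against -1.24, -0.30, 0.42, 0.55 and -0.27 in wild type, also highest in wild-type replicate 4, and its part in the Aldoc value was not tested. Of those 15 markers 3 were lower in labelled p21-null arrays at an unadjusted p under 0.05 in limma, where 3.91% of all features were. Among them S100b was 12.6-fold lower (limma unadjusted p = 0.00207). In wild type S100b was highest in replicate 2, at 2.61, and stood at 0.18 in replicate 4. Nefl was above background on 2 of 3 labelled p21-null and 5 of 5 wild-type arrays and was highest in wild-type replicate 4, at 1.25. Gpi1 (glucose 6-phosphate isomerase), Aldoa and Tpi1 (triose phosphate isomerase) differed by -0.06, 0.08 and 0.25, and the sign for Gpi1 turned with median scaling (0.000926).

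Of the 11 genes from triose phosphate to lactate, the widely expressed forms had differences from -0.43 to 0.09 on their brightest probes. For those probes of Gapdh, Pgk1, Pgam1 and Ldha the intervals excluded a 2-fold change. Gapdh differed by 0.03 (interval from -0.66 to 0.71), Pgk1 by 0.09 (-0.51 to 0.68), Pgam1 by -0.07 (-0.74 to 0.61), Ldha by 0.04 (-0.69 to 0.77), Eno1 by -0.43 (-1.23 to 0.36) and Pkm by -0.25 (-1.03 to 0.53). The direction for Gapdh was negative with quantile scaling (-0.0083). Gapdh was read by 7 probes, whose differences ran from -0.02 to 0.23. The dimmer Ldha probes differed by 0.45 and 0.54 (two-sided exact permutation p = 0.161 and p = 0.214), more than the brightest one. Several of these genes have processed pseudogenes in the mouse, and cross-hybridisation was not tested.

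Pklr, the pyruvate kinase of liver and red cells, had the largest difference of the 40. It stood at 4.07, 3.80 and 4.61 in labelled p21-null replicates 1 to 3, against 2.26, 0.10, 1.97, 0.78 and 3.42 in wild-type replicates 1 to 5. The labelled p21-null arrays lay close together and above all wild-type arrays, which spread widely. The difference was 2.45 (SE 0.69), or 5.47-fold (unadjusted p = 0.0062, limma adjusted p = 0.307), and 2.63, 3.02 and 1.19 within slides 1, 2 and 3. Leaving out each array in turn gave 2.05 to 2.88.

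The wild-type arrays held Pklr in the order of their erythroid mean, replicate 5 highest, then 1, 3, 4 and 2. With the erythroid mean as a covariate the Pklr difference was -0.19 (SE 0.52, limma unadjusted p = 0.720), and with the liver mean 0.59 (SE 0.58). Slc2a1 differed by 0.06 (SE 0.53) with the erythroid and 0.43 (SE 0.49) with the liver covariate. Both covariates were themselves higher in labelled p21-null arrays, so marker level and group cannot be told apart in these fits. Hk1 and Slc2a1 followed the wild-type order of the liver mean, replicates 5, 3, 1, 4 and 2. These orders were looked up after the values were seen.

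Ldhb, the lactate dehydrogenase subunit typical of heart and oxidative tissue, was the 1 gene on the lower side at an unadjusted p under 0.05. It had 1.58, 2.19 and -0.18 in labelled p21-null arrays, against 3.54, 1.85, 3.49, 3.49 and 1.65 in wild-type arrays. The groups overlapped, since wild-type replicates 2 and 5 lay below labelled p21-null replicate 2. The difference of -1.61 (SE 0.68), or 3.05-fold lower, had an unadjusted p of 0.0410 (limma adjusted p = 0.468), and within slides 1, 2 and 3 it was -1.38, -1.30 and -1.83. It was -0.92 when labelled p21-null replicate 3 was left out (limma unadjusted p = 0.199). The limma p was also above 0.05 with labelled p21-null replicate 1 left out (0.0563) or with wild-type replicate 1 (0.0807), 3 (0.0781) or 4 (0.0821) left out.

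**Figure D2:**
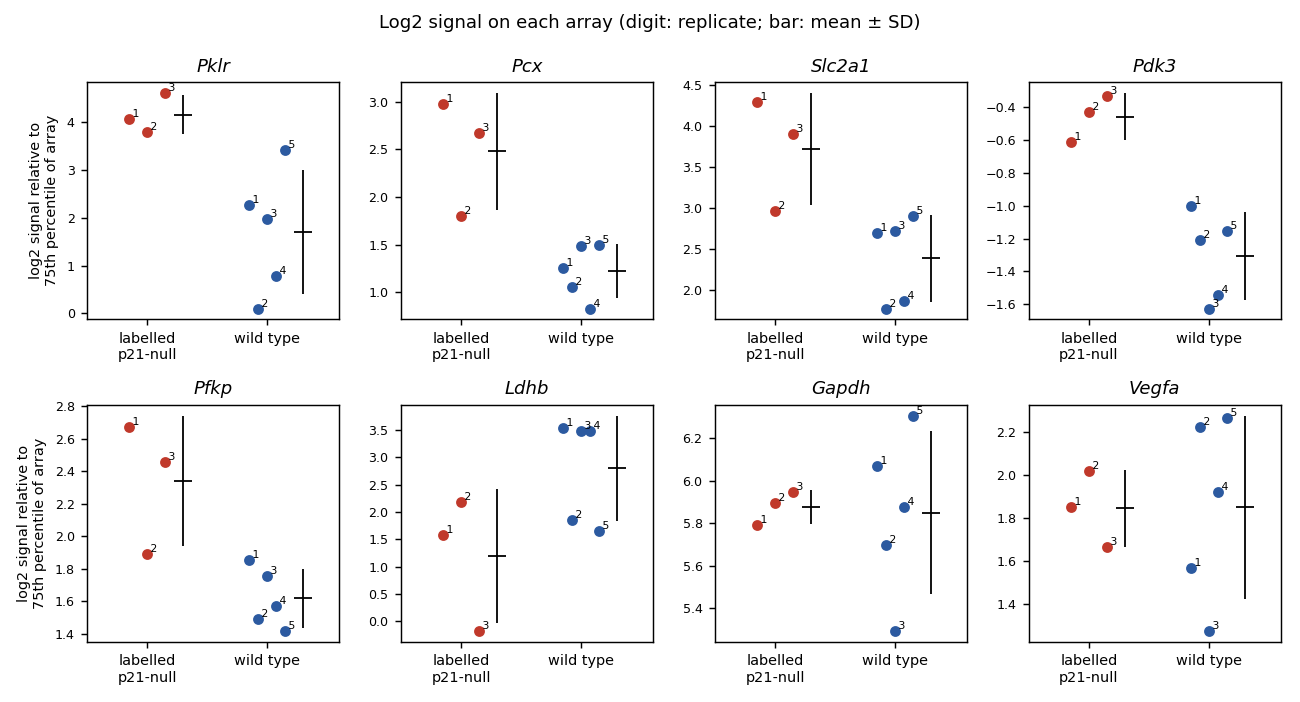
Log2 intensity minus that of the array's 75th percentile (vertical axis) on each labelled p21-null (red) and wild-type (blue) array for 8 genes, with the mean and SD beside the points. For Pklr, Pcx, Slc2a1, Pdk3 and Pfkp every labelled p21-null array lies above the wild-type arrays; for Ldhb, Gapdh and Vegfa the groups overlap.

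The muscle and brain forms varied more among wild-type arrays than between the groups. Eno3 stood at 1.84, 0.77 and 1.82 in labelled p21-null arrays, against 0.32, 3.51, 1.19, 1.67 and 3.27 in wild-type arrays. Pgam2 stood at -0.09, -0.37 and 0.52 in labelled p21-null arrays, against -0.31, 2.18, -1.19, -0.50 and 1.13 in wild-type arrays. Both were highest in wild-type replicates 2 and 5. The mean of 16 skeletal and cardiac muscle markers was 0.01, -1.05 and 0.73 in labelled p21-null arrays. In wild type it was -1.30, 2.45, -1.92, -1.42 and 1.76, highest in the same 2 arrays. Pgam2 and Aldoa, whose product is the main aldolase of muscle, followed the wild-type order of that mean throughout (replicates 2, 5, 1, 4 and 3). Eno3 did not (2, 5, 4, 3 and 1). Replicate 3 was the lowest wild-type array for 18 of the 40 genes, and such matches were not counted over all features. Of the muscle markers Ckm was above background on 2 of 3 labelled p21-null and 3 of 5 wild-type arrays. Mylpf was above it on 3 of 3 labelled p21-null and 3 of 5 wild-type arrays. The muscle markers with the smallest p, Myod1, Mylpf and Myh6, differed by -0.66, 0.64 and 0.19. The part of muscle RNA in the isozyme values was not tested. Eno3 differed by -0.52 (interval from -2.18 to 1.15), Pgam2 by -0.25 (-1.88 to 1.39) and Eno2 by -0.34 (-1.05 to 0.38). These genes were picked for their spread after the values were seen.

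**Figure D3:**
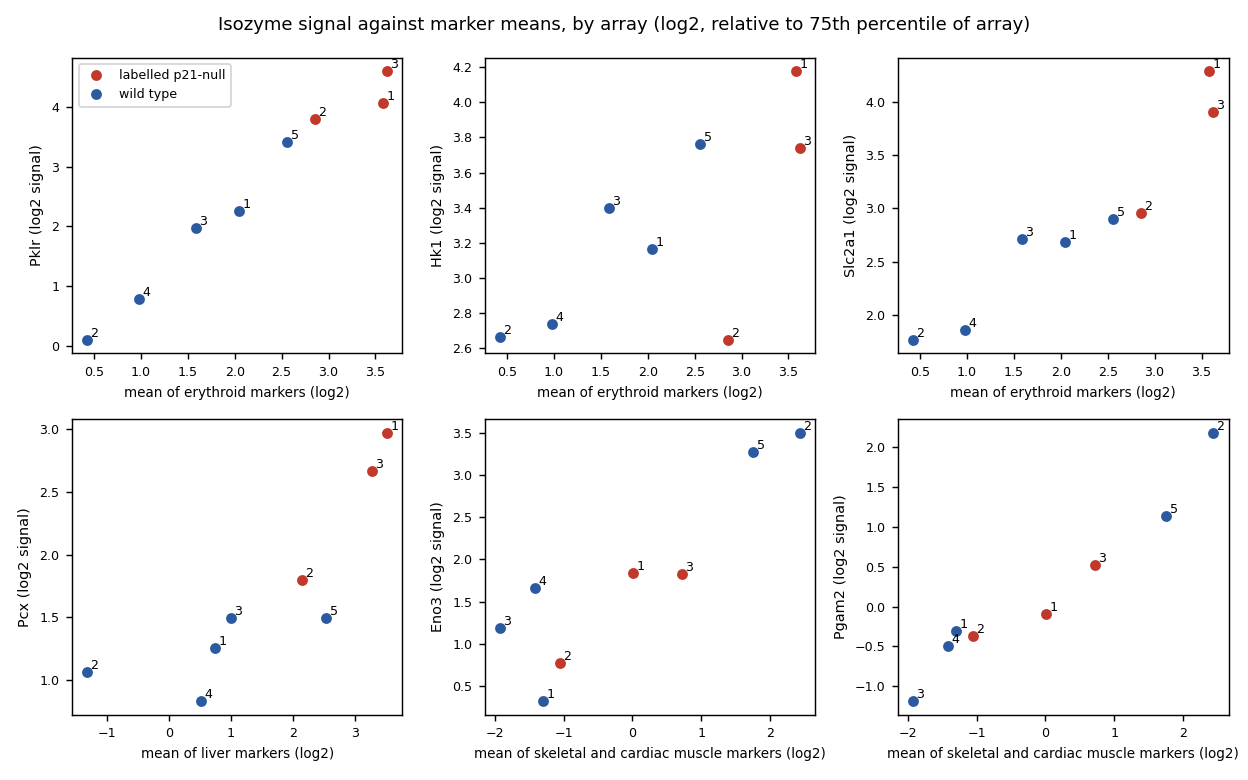
Log2 signal of 6 isozyme genes (vertical axes) against the mean log2 signal of a marker list on the same array (horizontal axes), labelled p21-null in red and wild type in blue, with the replicate number beside each point. Pklr is 4.61 in labelled p21-null replicate 3, which has the highest erythroid mean, and 0.10 in wild-type replicate 2, which has the lowest, and Pgam2 is highest in the wild-type arrays with the highest muscle mean.

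Whether 2 isozymes of a step differed unequally was tested by the within-array ratio of their signals, over 16 pairs. For Pklr over Pkm the group difference of the log2 ratio was 2.71 (two-sided exact permutation p = 0.0714, adjusted over the 16 pairs p = 0.357), for Slc2a2, the liver glucose transporter, over Slc2a1 2.49 (exact p = 0.0536, adjusted p = 0.357) and for Ldhb over Ldha -1.65 (exact p = 0.125, adjusted p = 0.400). The smallest p that 56 splits allow is 0.0179, and 0 pairs passed after adjustment. Even at that smallest p, 1 pair alone could not pass over 16 pairs, so this count decides nothing about any pair. Eno3 over Eno1 differed by -0.08, Eno2 over Eno1 by 0.09 and Pgam2 over Pgam1 by -0.18. The Slc2a2 pair was the 1 pair whose groups did not overlap, and its difference was 1.41 with normexp background correction and 1.40 in the deposited table. For Hk2 over Hk1 the difference of -0.68 was -1.74 with the second brightest probes.

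Fructose 2,6-bisphosphate, made and broken down by the Pfkfb enzymes, activates phosphofructokinase and slows gluconeogenesis. Pfkfb3, the form with the strongest kinase activity, had 0.64, 0.34 and 0.38 in labelled p21-null arrays, against 0.88, 0.87, 1.03, 1.64 and 0.94 in wild-type arrays. All labelled p21-null arrays lay below the wild-type arrays, with wild-type replicate 4 standing far above its own group. The difference was -0.62 (SE 0.29; unadjusted p = 0.0620, limma adjusted p = 0.527), within slides 1, 2 and 3 -0.28, -1.30 and -0.56, and the second Pfkfb3 probe differed by -0.60. Pfkfb1, the liver and muscle form, Pfkfb2 and Pfkfb4 differed by -0.0011, 0.55 and 0.08. The 2 Pfkfb4 probes disagreed in size, the dimmer one differing by 2.42 with 3 of 5 wild-type arrays above background.

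Gluconeogenesis needs pyruvate carboxylase (Pcx), phosphoenolpyruvate carboxykinase (Pck1), fructose bisphosphatase (Fbp1) and glucose 6-phosphatase (G6pc). Only Pcx, which also feeds oxaloacetate to the citric acid cycle in many tissues, had an unadjusted p under 0.05 among these 4. It stood at 2.97, 1.80 and 2.67 in labelled p21-null arrays, against 1.26, 1.06, 1.49, 0.83 and 1.49 in wild-type arrays, with no overlap. The difference was 1.25 (SE 0.35), or 2.38-fold (unadjusted p = 0.00554, limma adjusted p = 0.302), and 1.71, 0.97 and 1.17 within slides 1, 2 and 3. It was 0.76 (SE 0.48) with the liver and 0.56 (SE 0.55) with the erythroid covariate.

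The other 3 had intervals that held 0. G6pc averaged -1.44 ± 0.05 (SD, n = 3) in labelled p21-null arrays and -0.75 ± 0.74 (SD, n = 5) in wild type, a difference of -0.68 (interval from -1.66 to 0.29). Pck1 was dim, at -4.71 ± 0.90 in labelled p21-null arrays and -5.27 ± 0.66 in wild type, and was above background on 3 of 3 labelled p21-null and 4 of 5 wild-type arrays. Its difference of 0.56 was 0.19 with normexp correction, 0.18 in the deposited table and 1.10 with array weights. Fbp1 ranged from -6.64 to -2.31 in labelled p21-null arrays and from -7.63 to -3.09 in wild type and was above background on 2 of 3 labelled p21-null and 4 of 5 wild-type arrays. Its difference was 0.05 (SE 1.19), and -0.15 with quantile scaling.

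Pyruvate dehydrogenase kinases phosphorylate and shut pyruvate dehydrogenase, which keeps pyruvate out of the mitochondrial oxidation path. Pdk3 had -0.61, -0.43 and -0.33 in labelled p21-null arrays, against -1.003, -1.21, -1.63, -1.54 and -1.15 in wild-type arrays, with a clear gap between the groups. The difference was 0.85 (SE 0.27), or 1.80-fold (unadjusted p = 0.0127, limma adjusted p = 0.357), and 0.67, 1.12 and 0.82 within slides 1, 2 and 3. With the liver covariate it was 0.86 (SE 0.43, limma unadjusted p = 0.0793) and with the erythroid covariate 0.68 (SE 0.49). Without labelled p21-null replicate 3 the unadjusted p was 0.0521. Pdk1, a target of HIF-1, differed by 0.79 (interval from -0.23 to 1.81), Pdk2 by -0.57 and Pdk4, a kinase raised in fasting, by 1.68 (interval from -0.65 to 4.01). With normexp correction the Pdk4 difference was 0.75, and it was 0.85 in the deposited table. Pdk4 was above background on 4 of 5 wild-type arrays and stood at -8.07 in wild-type replicate 3 and at -4.66 to -2.48 in the other wild-type arrays.

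The 4 hypoxia targets outside glycolysis did not separate the groups. Egln3, a hydroxylase that marks HIF for breakdown, had -2.03, -1.20 and -1.01 in labelled p21-null arrays, against -0.90, -0.75, -1.28, -2.14 and -0.11 in wild-type arrays, a difference of -0.38 (SE 0.47, unadjusted p = 0.442, limma adjusted p = 0.866). Its second probe differed by 0.30, in the other direction. Vegfa, the endothelial growth factor, differed by -0.0054 (interval from -0.73 to 0.72), Bnip3, a mitophagy receptor, by 0.16 (-0.58 to 0.90), and Car9, a carbonic anhydrase, by 0.13 (-0.90 to 1.16). The Vegfa difference was positive with median scaling (0.0559). Of the dimmer Bnip3 probes 1 differed by 0.12 and the dimmest by 1.56 (two-sided exact permutation p = 0.161). The dimmest was above background on 3 of 5 wild-type arrays.

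In 5 lists of other genes of these pathways 0 passed the adjusted threshold in limma. Among 22 measured other isozymes and sugar transporters 15 had a positive difference, the median was 0.58, and 9 had an unadjusted p under 0.05, all higher in labelled p21-null arrays (40.9%, against the 10.1% background). Slc2a2 averaged -0.68 in labelled p21-null arrays and -4.51 in wild type (14.2-fold, limma unadjusted p = 0.00536) and was above background on 4 of 5 wild-type arrays. Wild-type replicate 2 stood at -7.43, under the lowest above-background value of that array (-5.95), so the size of the fold is uncertain. Hkdc1, a hexokinase relative, averaged -1.05 in labelled p21-null arrays and -4.20 in wild type (8.91-fold) and was likewise above background on 4 of 5 wild-type arrays. Wild-type replicate 5, with the highest liver mean of the wild-type arrays, stood at -1.95 for Slc2a2 and -2.02 for Hkdc1. Slc2a2 followed the wild-type order of the liver mean throughout. Hkdc1 did not, at -2.37 in replicate 1 and -4.88 in replicate 3, whose liver means were 0.74 and 1.001. Matches of this order over all features were not counted, and the part of liver RNA in these values was not tested. Others of the 9 were Hk3, the hexokinase of white blood cells (2.07-fold), the mitochondrial Pck2 (1.79-fold), the transporters Slc2a4 (2.57-fold) and Slc16a7 (2.53-fold), Galm (2.36-fold) and Minpp1 (2.08-fold). Bpgm, the red cell enzyme that makes 2,3-bisphosphoglycerate, differed by 0.93 (limma unadjusted p = 0.0876). Differences between -0.81 and 0.70 were found for Gapdhs, Pgk2, Ldhc, Ldhd, Fbp2, G6pc3, Slc2a5, Slc16a8, Adpgk, Tigar and Eno4, while G6pc2 did not pass the filter. The mean of 14 macrophage markers was 0.24 to 1.06 in labelled p21-null arrays and -0.88 to 0.34 in wild type, and its part in the Hk3 value was not tested.

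Of 36 genes of the HIF pathway 23 had a positive difference (median 0.13), 4 were higher and 2 lower at an unadjusted p under 0.05 (16.7%, against 10.1% of all features and 12.8% of those with a symbol). They were Plin2, which coats lipid droplets, at 3.24-fold (limma unadjusted p = 0.00217), Tfrc, the transferrin receptor that developing red cells carry in quantity, at 3.67-fold, Ndrg1 at 2.15-fold and Loxl2 at 2.84-fold, with Kdm4b at 1.84-fold lower and Arnt2 at 5.15-fold lower. Hif1a, which encodes the oxygen-regulated subunit, differed by -0.69 (limma unadjusted p = 0.0501).

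In the pyruvate dehydrogenase complex and citric acid cycle 20 of 27 genes had a positive difference and 0 had an unadjusted p under 0.05 (median 0.29), and the 4 of smallest p, Suclg2, Fh1, Idh3a and Sdhd, differed by 1.08, 0.68, 0.52 and 0.57. In the pentose phosphate pathway Rpia, ribose 5-phosphate isomerase, was 2.97-fold higher (limma unadjusted p = 0.00142) and Tkt, transketolase, 1.63-fold. These were the 2 of 10 with an unadjusted p under 0.05 (background 6.2% higher and 10.1% either way). H6pd differed by -1.51 and Taldo1 by 0.57. Of 19 genes of glycogen metabolism Gys2, the liver glycogen synthase, was 5.80-fold and Phkg1 1.78-fold higher at an unadjusted p under 0.05 (10.5% of the list, near the 10.1% of all features), while Pygl, the liver phosphorylase, at a difference of 1.04 (limma unadjusted p = 0.0506), and Ugp2, at -0.66, did not pass. The 5 lists held, in the order given, 22, 36, 27, 10 and 19 measured genes. In all, 19 genes of these lists had an unadjusted p under 0.05 in limma, where 10.1% of all features did. The count was 6 with labelled p21-null replicate 3 left out, where 5.21% of all features did, and 8 with replicate 1 of that group left out, where 7.02% did. It was 2 when the liver covariate was fitted and 3 for the erythroid one, against 2.39% and 2.30% of all features.

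**Figure D4:**
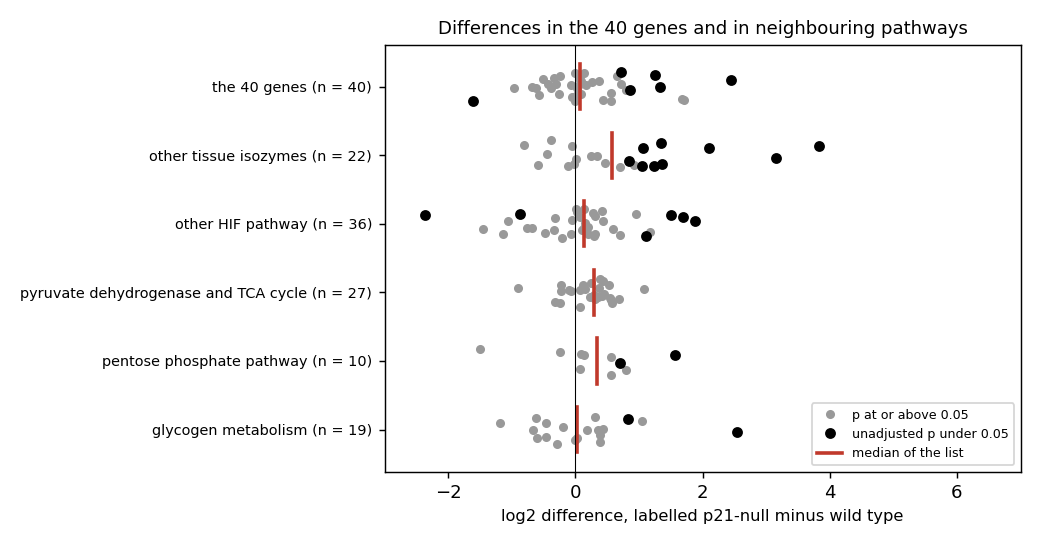
Log2 difference (horizontal axis, labelled p21-null minus wild type) of every measured gene of the list of 40 and of 5 neighbouring lists, with the list median as a red line and black points for an unadjusted p under 0.05. The other isozymes have the highest median, 0.58, and the list of 40 has 0.07.

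Within the list, spread among wild-type arrays was as large as most group differences. The wild-type SD ran from 0.18 for Pfkp to 2.05 for Pdk4, with a median of 0.68. Wild-type replicate 3 was the lowest of the 5 for 18 genes, among them Gapdh, Ldha, Aldoa and Tpi1, and replicate 5 the highest for 12. The same counts were not made over all features, so a trait of the list and one of the whole array cannot be told apart. Within all 3 slides 17 genes kept 1 sign, 11 higher and 6 lower, and the share over all features was not counted. Each of the 6 at an unadjusted p under 0.05 was among them. Those 6 were picked by the group difference on these same arrays, so their common sign is no separate support.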

How the data were processed

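Scanner files of 8 arrays, deposited by the authors, hold linear spot intensities from Agilent Feature Extraction 10.7.3.1 per the file headers; the processed intensity is corrected for background within an array and nothing was normalized between arrays. A deposited table holds log2 values per probe (limma, per the submitters' processing notes; its background method is not stated there); each column had a median of 9.26 and correlated at 0.9999 or higher with log2 of normexp-corrected, quantile-normalized intensities.

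From 62976 spots, 59305 were not controls, in 55681 probes; accessions gave a symbol from RefSeq (GRCm38.p6) for 26056 probes and none for 29625. Log2 processed intensity minus the 75th percentile of each array was used, without outlier spots. Probes well above background on at least 3 of 8 arrays were kept (50040), and the brightest stood for a gene. Between 82.2% and 89.2% of probes were above background, no spot was saturated, and the number of arrays limits precision.

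The 2 groups were tested by limma 3.58.1 (R 4.3.3; lmFit, eBayes) over all features with Benjamini-Hochberg adjustment. Isozyme ratios used two-sided exact permutation tests. The fit was tested on simulated data. All members are named; of each neighbouring list the 4 of smallest p and every tissue isozyme; of each marker list the 3 of smallest p and any not above background on all arrays. Loxl2, Arnt2 and Hif1a were named after their values were seen. Some genes that this rule names are not reported here. The members and lists were chosen with earlier results of these data known. Slides were read from array barcodes; slide 1 held wild-type replicates 1 to 3 and labelled p21-null replicate 1, slides 2 and 3 one array of each group. Alternatives were other scalings, background correction, filters and probe rules, slide and replicate blocks, moderation, array weights, marker covariates, the deposited table and leaving out each array.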

Additional observations from a re-analysis of the deposited data

Results flagged for a closer look

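In 5 of 41 genes examined (the list and Cdkn1a) 1 wild-type array stood far from the other 4, by a gap test that chance meets in about 1 of 20 groups. Wild-type replicate 3 was low for Bnip3, at 1.19 on the log2 scale against 2.02 for the nearest array, for Pfkl, at 1.502 against 2.60, and for Hk2, at -1.96 against -0.07. Wild-type replicate 2 was low for Pfkfb2, at -4.68 against -3.36. Wild-type replicate 4 was high for Pfkfb3, at 1.64 against 1.03.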

How the results depend on the processing

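Under every alternative run 0 of the 40 genes passed the adjusted threshold. Under those in which pairs were tested 0 isozyme pairs did, a count that the few splits of the arrays made all but certain. The count of the 40 at an unadjusted p under 0.05, 6 in the main analysis, was 3 with the replicate block, 12 with array weights and 0 with the liver or erythroid covariate, and 3 to 7 when 1 array was left out; over all features the share was 2.39% and 2.30% with the 2 covariates and 16.7% with array weights. At an unadjusted p under 0.01 and 2-fold it was 2, against 1 with the replicate block, 0 with either covariate and 0 to 2 with 1 array left out. Features at an adjusted p under 0.05 numbered 4 with normexp correction, 8 with array weights and 0 to 1 with 1 array left out. Genes of the neighbouring lists at an unadjusted p under 0.05, 19 in the main analysis, were 33 with array weights, 2 with the liver and 3 with the erythroid covariate and 6 to 26 with 1 array left out. The cause was not tested. Same-numbered arrays did not deviate together (correlations 0.07, -0.09 and -0.07), so the numbers were not taken as pairs. The replicate block changed no call at the adjusted threshold. Deviations of the 2 arrays on a slide correlated at 0.14 on slide 2 and 0.23 on slide 3, and the main fit held no slide term. With slide as a fixed or a random block the count of the 40 at an unadjusted p under 0.05 in limma was 6. With array weights the sign turned for Pfkfb1 (0.14). With the deposited table the sign turned for Pfkfb1 (0.11). With the erythroid covariate the sign turned for Slc16a1 (-0.82), Hk1 (-0.80), Hk2 (0.19), Aldoc (0.36), Gapdh (-0.37), Pgam1 (0.0437), Pgam2 (0.26), Eno2 (0.22), Pkm (0.52), Pklr (-0.19), Ldha (-0.46), Pfkfb2 (-0.25), Vegfa (0.19), Car9 (-0.00339), Cdkn1a (0.32). With the liver covariate the sign turned for Slc16a1 (-0.39), Hk1 (-0.52), Hk2 (0.11), Gapdh (-0.22), Pgam1 (0.0786), Pgam2 (0.33), Eno2 (0.000868), Pkm (0.32), Ldha (-0.24), Pfkfb2 (-0.20), Fbp1 (-0.50), Vegfa (0.10), Cdkn1a (0.43). With median scaling the sign turned for Gpi1 (0.000926), Pfkfb1 (0.0602), Vegfa (0.0559). With normexp correction the sign turned for Pfkfb1 (0.0846), Slc16a3/Slc16a1 (0.0224), Pdk4/Pdk1 (-0.079). With quantile scaling the sign turned for Gapdh (-0.00834), Pfkfb1 (0.0136), Fbp1 (-0.15). With the replicate number as a block the sign turned for Hk2 (0.0209), Pfkm (-0.16), Vegfa (0.16), Car9 (-0.28), Eno3/Eno1 (0.22). With the second brightest probe the sign turned for Egln3 (0.30). With slide as a fixed block the sign turned for Gapdh (-0.0532), Pfkfb1 (0.17), Slc2a3/Slc2a1 (-0.0845). With slide as a random block the sign turned for Pfkfb1 (0.0177). With 1 array left out the difference spanned 0 for Gpi1 (-0.23 to 0.0569), Pfkm (-0.10 to 0.19), Pgam1 (-0.18 to 0.0616), Pfkfb4 (-0.25 to 0.30), Fbp1 (-1.02 to 1.15), Cdkn1a (-0.50 to 0.0758), Gapdh (-0.11 to 0.14), Pgam2 (-0.61 to 0.23), Pfkfb1 (-0.36 to 0.51), Vegfa (-0.15 to 0.10), Pgam2/Pgam1 (-0.43 to 0.27), Eno3/Eno1 (-0.56 to 0.30), Slc16a3/Slc16a1 (-0.73 to 0.41), Aldoa (-0.065 to 0.23), Tpi1 (-0.0491 to 0.41), Ldha (-0.10 to 0.23), Bnip3 (-0.0215 to 0.30), Slc2a3/Slc2a1 (-0.66 to 1.35), Car9 (-0.20 to 0.30), Eno2/Eno1 (-0.18 to 0.32), Fbp1/Pfkl (-1.91 to 0.47). The leave-one-out range of the median of the 40 was -0.00134 to 0.21. The isozyme pairs with slide as a block were computed without a test.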
